A study of Mus musculus with 66 samples.

Results

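Transcript levels of 9 genes whose products remove, prevent or limit R-loops were read from RNA-Seq of mouse embryonic stem cells: the ribonuclease H genes Rnaseh1, Rnaseh2a, Rnaseh2b and Rnaseh2c, the helicase gene Aqr, the topoisomerase genes Top1 and Top3b, the Top3b partner Tdrd3, and the exonuclease gene Xrn2. The genes were chosen by name for these roles. All 9 were found once among the 55487 gene identifiers of each library, and all 9 were among the 15421 genes that passed the filter on low counts. The 7 libraries came from the E14 embryonic stem cell line and fell into 3 groups. GDel1 (2 libraries) and GDel2 (2 libraries) carried a genotype that the labels call a Praf2 G4 deletion, and WT (3 libraries) was wild type. G4 is short for G-quadruplex, a stack of guanines held in a folded DNA strand. All groups were untreated and were grown in serum with leukaemia inhibitory factor, a GSK inhibitor and a MEK1/2 inhibitor. Libraries were prepared with a directional kit from total RNA after removal of ribosomal RNA. Whether GDel1 and GDel2 were derived as distinct clones, and whether replicates are distinct cultures, is not in the labels, so p-values measure the spread between these libraries, which may be technical.

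An R-loop forms when a nascent transcript pairs with its DNA template and leaves the other DNA strand single. Ribonuclease H enzymes cut the RNA of such hybrids, helicases unwind them, topoisomerases relieve the negative supercoils in which they form, and 5′ to 3′ exonucleases degrade the transcript left behind the polymerase. G-quadruplexes can form on the displaced strand, and the series title links R-loop associated G-quadruplexes to interactions of CTCF, a protein that binds DNA and organises chromatin loops.

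The libraries held 12316853 to 18762704 expected counts. Praf2 had 10.1 and 9.26 CPM (counts scaled to a common library size) in GDel1 and 13.1 and 14.1 CPM in GDel2, against 27.5, 28.8 and 30.6 CPM in WT. Every library with the deletion label was therefore below every WT library for the gene at the edited locus, by a log2 fold change of -1.59 ± 0.11 (SE; adjusted p = 0.00206) in GDel1 and -1.09 ± 0.11 (adjusted p = 2.01e-04) in GDel2. All 10 of 10 embryonic stem cell markers exceeded 1 TPM (transcript abundance scaled for length and library) in every library. Their summed level was 1773 to 2301 TPM in GDel1 and 1792 to 2142 TPM in GDel2, against 2146 to 2518 TPM in WT. The lower sum in GDel2 did not hold for each marker. Dppa5a had 563.13 and 431.22 TPM in GDel2, against 857.13 to 997.18 TPM in WT. Zfp42 had 145.91 and 139.05 TPM in GDel2, against 62.41 to 74.96 TPM in WT. Sox2, Esrrb and Tfcp2l1 also lay below every WT library in GDel2, and Nanog and Tdgf1 also lay above. Pou5f1, Klf4 and Klf2 overlapped WT there. Of 8 markers of fibroblast feeders none exceeded 1 TPM in every library, Col3a1, Dcn and Postn were at 0 throughout, and the sums were 0.26 to 0.36 TPM in GDel1 and 2.01 to 2.82 TPM in GDel2, against 0.59 to 0.94 TPM in WT. Of 6 primitive endoderm markers none exceeded 1 TPM in every library, and they summed to 0.33 to 0.43 TPM in GDel1 and 0.54 to 1.37 TPM in GDel2, against 0.28 to 0.68 TPM in WT. Of 6 trophoblast markers 1 (Tfap2c) exceeded 1 TPM in every library, and they summed to 5.51 to 7.44 TPM in GDel1 and 7.22 to 10.3 TPM in GDel2, against 6.93 to 8.56 TPM in WT. GDel2 libraries had the highest sum of feeder markers, mostly Thy1, at 1.39 and 2.23 TPM in GDel2 against at most 0.66 TPM in WT. The part of these markers in the results below was not tested. Mitochondrial genes held 9.91% and 4.83% of counts in GDel1 and 6.19% and 9.60% in GDel2, against 6.30% to 6.89% in WT. Leaving out the 2 libraries of highest share kept 1 library in each deletion group. That fit cannot tell mitochondrial share from the loss of replicates, so the part of this share in the results was not tested. The GDel1 libraries stood furthest apart among replicate pairs: their chi-square, divided by its degrees of freedom, was 67.2, while the GDel2 pair gave 22.2 and the WT pairs 4.79 to 7.20.

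In WT cells, levels scaled for transcript length placed the 9 genes in an upper and a lower tier. Rnaseh2b averaged 38.6 ± 5.12 TPM (SD, n = 3), Xrn2 37.9 ± 2.42 TPM, Aqr 35.9 ± 4.34 TPM, Top3b 31.7 ± 4.88 TPM, Rnaseh2a 31.3 ± 4.43 TPM and Top1 25.8 ± 3.16 TPM. Each of these genes overlapped its neighbour in the order over the 3 libraries, although Top1, at 23.2 to 29.4 TPM, lay wholly below Rnaseh2b, Xrn2 and Aqr. Rnaseh2c followed at 14.6 ± 1.66 TPM, Tdrd3 at 3.94 ± 0.19 TPM and Rnaseh1 at 3.00 ± 0.26 TPM, each with a range below that of the gene before it. Rnaseh2b exceeded 88.0% of the genes tested and Rnaseh1 exceeded 40.7%, and the median gene tested was at 5.17 TPM. The 3 subunit genes of ribonuclease H2, whose proteins assemble in equal number, had unequal transcript levels in WT: the ratio of Rnaseh2a to Rnaseh2b was 0.825, 0.714 and 0.904, and that of Rnaseh2b to Rnaseh2c was 2.66, 2.88 and 2.40 (TPM over TPM).

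In GDel2, the catalytic subunit gene Rnaseh2a was 1.69-fold higher than in WT, while Top3b was 1.40-fold lower and Xrn2 1.19-fold lower. These 3 of 9 genes (33.3%) passed an adjusted p of 0.05, against 33.1% of all genes tested in the same comparison, so the share of the 9 genes was the background share. By direction, 1 of 9 was higher and 2 of 9 were lower, against 17.4% and 15.6% of all genes tested. The other 6 genes had log2 fold changes between -0.08 and 0.06 in GDel2. In GDel1 against WT, 0 of 9 genes passed in edgeR, against 0.376% of all genes tested (0.162% higher, 0.214% lower). DESeq2 also called 0 of 9 there, against 6.44% of all genes, as did limma on log2(TPM + 1) and log2(TPM + 0.1), against 21.1% and 22.9%. By edgeR 3 of 9 (Rnaseh2a, Rnaseh2c and Xrn2) had an unadjusted p under 0.05, each with a higher mean in GDel1, against 24.5% of all genes tested. Between the 2 deletion groups themselves 4 of 9 genes passed, against 27.7% of all genes tested (14.8% higher, 12.8% lower): Rnaseh2a was higher in GDel2 than in GDel1, and Rnaseh2c, Top3b and Xrn2 were lower. Taking GDel1 and GDel2 as 1 group of 4 libraries against WT, none of 9 genes passed in edgeR (0% of all genes tested). Praf2 did not pass there either (log2 fold change -1.32 ± 0.16, adjusted p = 0.144, the lowest of all genes). That fit counts the difference between GDel1 and GDel2 as error, so its lack of calls cannot decide whether the 9 genes changed. At an unadjusted p under 0.05 in edgeR there was 1 of 9, Rnaseh2a, against 19% of all genes, and DESeq2 called 1 of 9, again Rnaseh2a (adjusted p = 0.0121), against 6.29% of all genes. The log2 fold changes of the 9 genes in that comparison ran from -0.20 for Top3b to 0.58 for Rnaseh2a. In bulk RNA, fewer cells that express a gene and less of its RNA per cell cannot be told apart.

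The median log2 fold change over the 9 genes was 0.12 in GDel1 against WT, 0.02 in GDel2 against WT and -0.11 in GDel2 against GDel1, and over all genes tested it was 0.00, 0.01 and -0.01 in the same comparisons. GDel1 and GDel2 were set against the same 3 WT libraries, so their values are given side by side and not as independent evidence of each other. The number of genes called in GDel1 against WT changed with the libraries kept. With all 7 libraries 58 of 15421 genes were called (25 higher, 33 lower), and 4, 4 and 9 without WT replicates 1, 2 and 3. Leaving out a deletion library kept 1 in its group, and for GDel1 it also dropped the widest replicate pair from the shared spread. Counts of calls from those fits cannot show what rested on that library. The 5099 genes called in GDel2 against WT became 2713 without GDel2 replicate 2 and 3375 without WT replicate 2, and the 4268 called in GDel2 against GDel1 became 2839 without GDel2 replicate 1 and 2639 without GDel2 replicate 2, where 2 of the 9 genes were left. With limma on log2(TPM + 1) the split in GDel1 was 30 higher and 3220 lower, and that in GDel2 against GDel1 was 3383 higher and 364 lower, against 2289 higher and 1979 lower by edgeR. On that TPM scale the median of all genes shifted by -0.30 in GDel1 and -0.05 in GDel2 against WT.

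**Figure D1:**
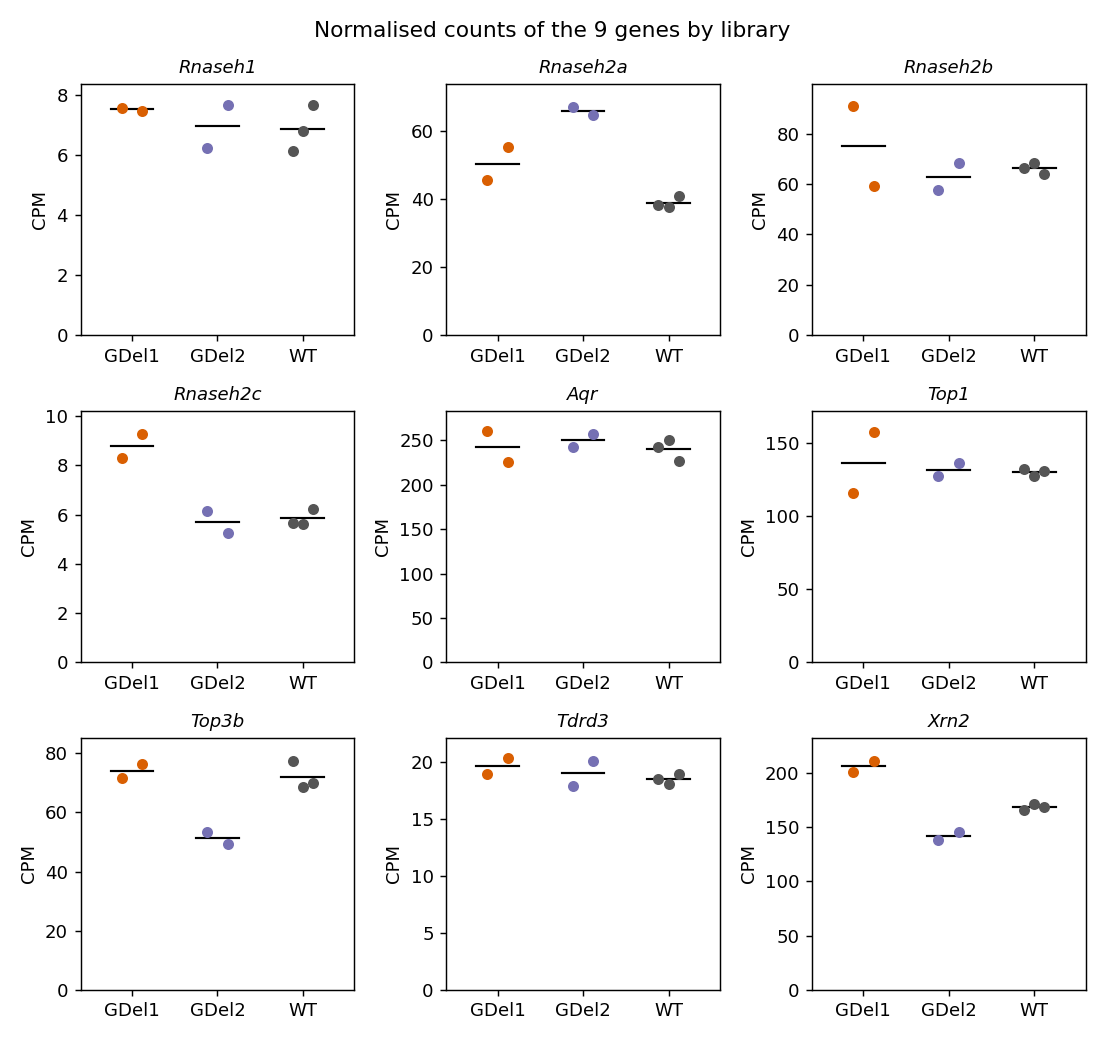
Normalised counts (CPM, linear axis from 0) of the 9 genes in each of the 7 libraries, 1 panel per gene, with GDel1, GDel2 and WT from left to right, points for libraries and a line at each group mean. Rnaseh2a stands at 67.0 and 64.6 CPM in GDel2, above 37.7 to 40.8 CPM in WT, and Top3b at 53.5 and 49.3 CPM in GDel2, below 68.5 to 77.5 CPM in WT.

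**Figure D2:**
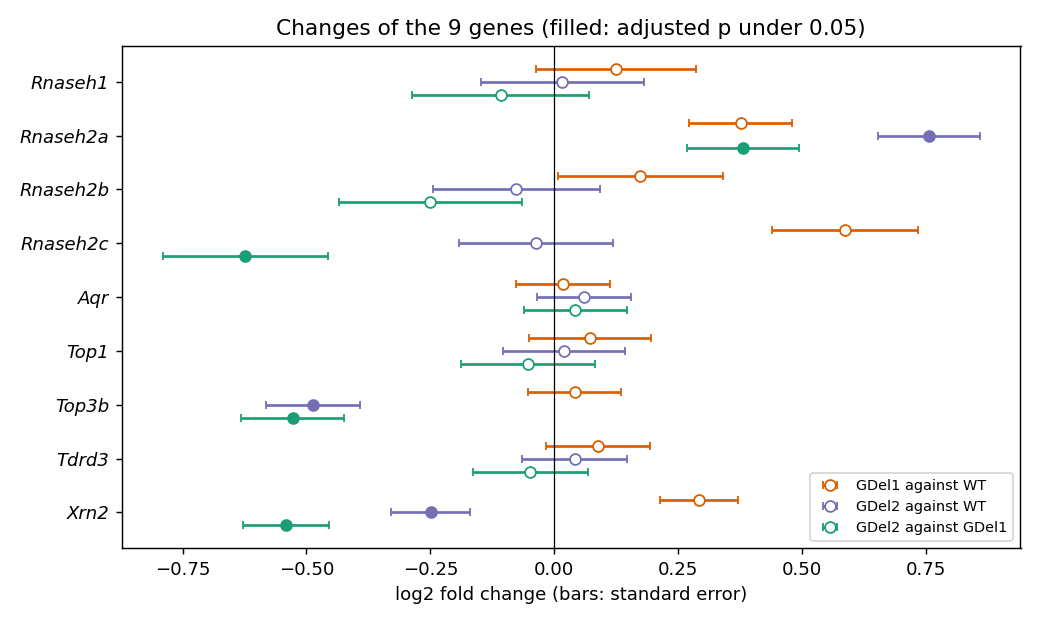
Log2 fold change of each of the 9 genes in GDel1 against WT, GDel2 against WT and GDel2 against GDel1, with the SE of the edgeR fit as bars and filled points where the adjusted p is under 0.05. Filled points in GDel2 against WT are Rnaseh2a at 0.76, Top3b at -0.49 and Xrn2 at -0.25, and GDel1 against WT has none.

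Rnaseh1 (ENSMUSG00000020630; chr12:28649601-28659592 of GRCm38.p6, the build called mm10) encodes the single-chain ribonuclease H that cuts the RNA of long hybrids and also acts in mitochondria. It had 7.57 and 7.44 CPM in GDel1 and 6.23 and 7.66 CPM in GDel2, against 6.11, 6.80 and 7.67 CPM in WT. The groups overlapped: GDel2 replicate 1 lay with the lowest WT library and GDel2 replicate 2 with the highest. The log2 fold change was 0.12 ± 0.16 (SE; adjusted p = 0.675) in GDel1 and 0.02 ± 0.16 (adjusted p = 0.953) in GDel2. Rnaseh1 was counted on 79 to 146 reads per library, so counting error alone was 8.28% to 11.3% of its value, and a change of that size was not detectable at this depth.

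Rnaseh2a (ENSMUSG00000052926; chr8:84956610-84969598) encodes the catalytic subunit of ribonuclease H2, the trimeric enzyme that cuts hybrids and removes single ribonucleotides from DNA. It had 45.7 and 55.2 CPM in GDel1 and 67.0 and 64.6 CPM in GDel2, against 38.3, 37.7 and 40.8 CPM in WT. Both GDel2 libraries lay above both GDel1 libraries, and all 4 of these lay above every WT library. The means were 50.5 ± 6.72 CPM in GDel1 and 65.8 ± 1.68 CPM in GDel2, against 39.0 ± 1.67 CPM in WT (SD). Rnaseh2a rose in GDel2 against WT (log2 fold change 0.76 ± 0.10, adjusted p = 8.07e-04) and passed under every alternative setting tried, with log2 fold changes of 0.65 to 0.79. GDel1 against WT gave 0.38 ± 0.10 (adjusted p = 0.0784). It was 0.50 without GDel1 replicate 1 and 0.23 without GDel1 replicate 2, in fits that each kept 1 GDel1 library. GDel2 against GDel1 gave 0.38 ± 0.11 (adjusted p = 0.0355). This difference between GDel2 and GDel1 lost its call with DESeq2 (adjusted p = 0.0657) and without GDel2 replicate 1 (0.168), GDel2 replicate 2 (0.0893), GDel1 replicate 1 (log2 fold change 0.25, adjusted p = 0.0827) or any of the WT replicates (0.0655 to 0.0724). On log2(TPM + 1) by limma it was 0.78, or 0.54 relative to the median of all genes. Rnaseh2a was the only member whose expected counts were not whole numbers, in 7 of 7 libraries, as happens where the counting tool divides reads between genes.

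The promoter window of Rnaseh2a, from 250 bases before to 50 bases after the start used in the RefSeq table (chr8:84966027-84966326, minus strand, GRCm38.p6), is shown because this gene had the largest change of the 9 in GDel2. Windows were found in that table for 7 of the 9 genes (not for Rnaseh1 and Rnaseh2b). The window of Rnaseh2a lies inside the annotated span of the gene, so the start used is not its outermost one. Capitals mark the single CCAAT box, written in reverse complement as ATTGG, 13 bases before the start.
Rnaseh2a promoter: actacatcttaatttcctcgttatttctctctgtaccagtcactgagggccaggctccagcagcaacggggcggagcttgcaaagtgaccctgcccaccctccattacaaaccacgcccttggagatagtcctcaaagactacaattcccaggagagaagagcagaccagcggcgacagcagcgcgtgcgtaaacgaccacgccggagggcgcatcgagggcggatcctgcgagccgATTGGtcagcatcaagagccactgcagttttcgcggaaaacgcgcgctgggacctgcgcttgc

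Far more genes of chromosome 8, where Rnaseh2a lies, were higher than lower in GDel2. The median log2 fold change of its 723 genes tested was 0.44 in GDel2 against WT, with 367 genes (50.8%) higher and 40 lower, and -0.01 in GDel1 against WT. Rnaseh2a was 0.31 above the chromosome median in GDel2, higher than 75.7% of the chromosome's genes, and 0.39 above it in GDel1. Of 48 other genes tested within 1 Mb, 23 were higher in GDel2, none was lower, and their median was 0.32. In GDel2 against GDel1 the chromosome median was 0.46, and Rnaseh2a at 0.38 was 0.08 below it. The gene with the library pattern closest to that of Rnaseh2a, Aprt, also lies on chromosome 8 and differed from it by 0.0472 (root mean square of log2 CPM centred on its mean over 7 libraries, the smallest of 8100 genes). The part of the chromosome in the difference of Rnaseh2a was not tested.

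**Figure D3:**
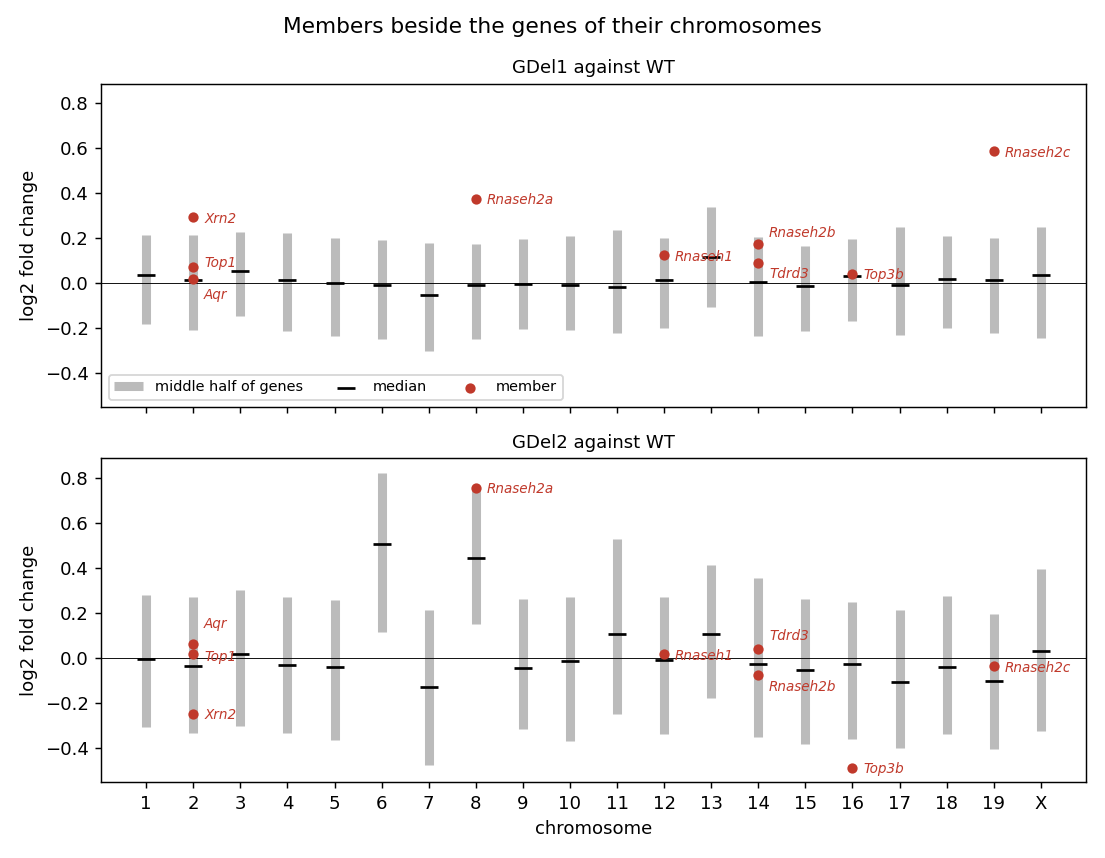
Log2 fold change of the genes tested on each chromosome (dash, median; grey bar, middle range, lower to upper quartile) with the 9 members as points, GDel1 against WT in the top panel and GDel2 against WT in the lower panel. In GDel2 the medians of chromosomes 6 (0.51) and 8 (0.44) stand above the others, and Rnaseh2a is 0.31 above that of chromosome 8.

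Rnaseh2b (ENSMUSG00000021932; chr14:62332068-62372996) encodes the subunit that binds the clamp PCNA. It had 90.7 and 59.2 CPM in GDel1 and 57.4 and 68.2 CPM in GDel2, against 66.4, 68.5 and 63.9 CPM in WT. GDel1 replicate 1 lay above all other libraries and GDel1 replicate 2 below all but 1 of them, while the WT libraries were close together. No comparison passed: the log2 fold change was 0.17 ± 0.17 (adjusted p = 0.561) in GDel1 and -0.08 ± 0.17 (adjusted p = 0.765) in GDel2 against WT, and -0.25 ± 0.18 (adjusted p = 0.349) in GDel2 against GDel1. The value turned on which GDel1 library was kept, a lone library being assumed to vary like the other groups. Without GDel1 replicate 1 it was -0.16 (adjusted p = 0.374) in GDel1 against WT and 0.09 (adjusted p = 0.601) in GDel2 against GDel1. Without GDel1 replicate 2 it was 0.45 (adjusted p = 0.0461) in GDel1 against WT and -0.53 (adjusted p = 0.00891) in GDel2 against GDel1. In the annotation the gene shares 62 bases with Gucy1b2.

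Rnaseh2c (ENSMUSG00000024925; chr19:5601873-5602959) encodes the scaffold subunit that pairs with the product of Rnaseh2b. It had 8.29 and 9.26 CPM in GDel1 and 6.16 and 5.28 CPM in GDel2, against 5.67, 5.63 and 6.25 CPM in WT. Both GDel1 libraries lay above all others, while GDel2 and WT overlapped. Rnaseh2c was lower in GDel2 than in GDel1 (log2 fold change -0.62 ± 0.17, adjusted p = 0.0236), and the call was lost with DESeq2 (adjusted p = 0.1004), without GDel1 replicate 2 (0.0774) and without GDel2 replicate 2 (0.127). On log2(TPM + 1) by limma it was -0.12 (adjusted p = 0.748), or -0.36 relative to the median of all genes. Against WT it did not pass, at 0.59 ± 0.15 (adjusted p = 0.0694) in GDel1 and -0.04 ± 0.16 (adjusted p = 0.881) in GDel2. The GDel1 value was 0.66 without GDel1 replicate 1, in a fit that kept 1 GDel1 library. The counts behind it were 73 to 178 per library, which carry a counting error of up to 11.7%.

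The balance of the 3 subunit transcripts of ribonuclease H2 was read as ratios within each library. The ratio of Rnaseh2a to Rnaseh2c in CPM was 5.51 and 5.96 in GDel1 and 10.9 and 12.2 in GDel2. In WT it was 6.75, 6.70 and 6.54, so GDel1 lay below and GDel2 above every WT value. Rnaseh2c had 73 to 178 counts per library, with a counting error of up to 11.7%. The WT values lay closer together than counting error alone would allow for, so their range cannot decide whether GDel1 differed from WT. In TPM the same ratio was 2.19 and 2.24 in GDel1 and 3.12 and 5.78 in GDel2, against 2.19, 2.06 and 2.17 in WT, so GDel2 was again above WT and GDel1 was not below it. The ratio of Rnaseh2a to Rnaseh2b in CPM was 0.504 and 0.933 in GDel1 and 1.17 and 0.948 in GDel2, against 0.576, 0.551 and 0.639 in WT. Both GDel2 libraries lay above WT on this ratio, and the GDel1 libraries lay on either side of WT. No test of these ratios was made.

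TPM also depends on the length that the authors' tool assigned to each gene and on the scaling of each library. It ordered the groups differently for genes such as Rnaseh2c and Xrn2. Rnaseh2c had an estimated length of 457 and 505 bases in GDel1 and 405 and 507 bases in GDel2, against 405, 408 and 428 bases in WT. Its TPM was 12.5 and 13.1 in GDel1 and 16.0 and 8.46 in GDel2, against 16.5, 13.4 and 13.98 in WT, so that GDel1, the highest group by CPM, was the lowest but for GDel2 replicate 2 by TPM. Rnaseh2a, by contrast, stayed highest in GDel2 by TPM, at 27.4 and 29.3 TPM in GDel1 and 49.9 and 48.9 TPM in GDel2, against 36.2, 27.5 and 30.4 TPM in WT. In GDel1, limma on log2(TPM + 1) turned the values of Rnaseh2a, Rnaseh2c and Xrn2 to -0.13, -0.17 and -0.18, against an all-gene median of -0.30.

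**Figure D4:**
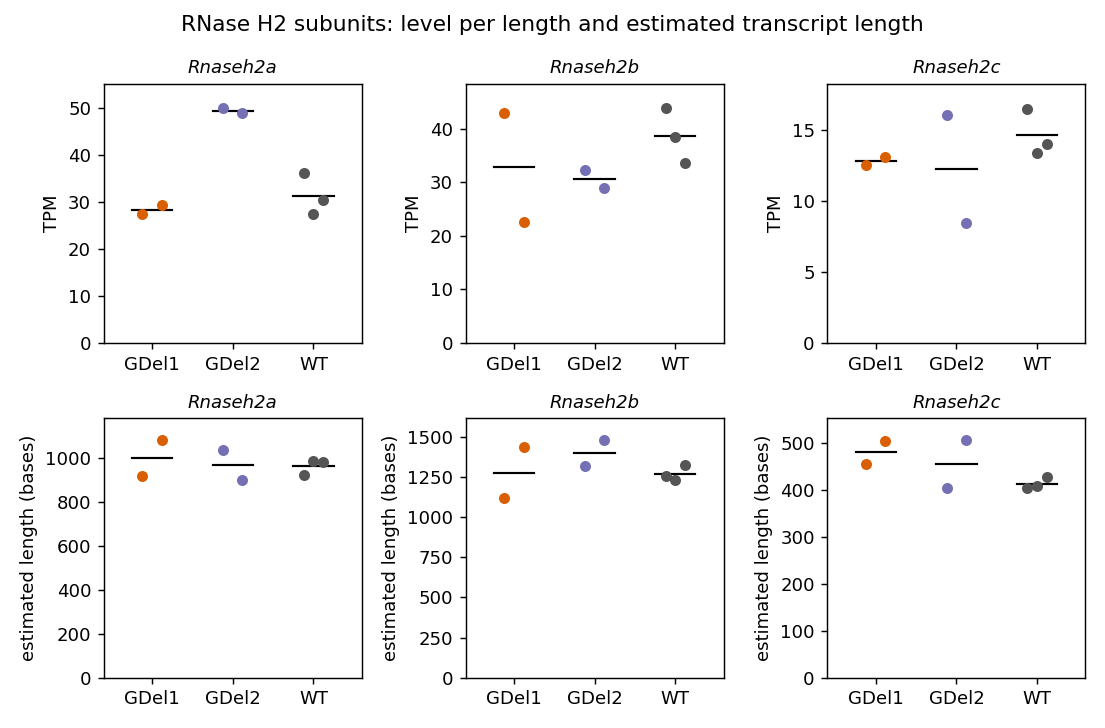
TPM (top row) and estimated transcript length in bases (bottom row) of Rnaseh2a, Rnaseh2b and Rnaseh2c in each library, with GDel1, GDel2 and WT from left to right, points for libraries and a line at each group mean. Rnaseh2a stands at 49.9 and 48.9 TPM in GDel2, above all other libraries, and the estimated length of Rnaseh2c is between 405 and 507 bases.

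Aqr (ENSMUSG00000040383; chr2:114101161-114175339) encodes Aquarius, a helicase of the intron-binding complex of the spliceosome, loss of which raises R-loops in human cells. It had 260 and 225 CPM in GDel1 and 242 and 257 CPM in GDel2, against 242, 250 and 226 CPM in WT. The 3 groups overlapped throughout, with the highest and the lowest library both in GDel1. The log2 fold change was 0.02 ± 0.10 (adjusted p = 0.934) in GDel1 and 0.06 ± 0.10 (adjusted p = 0.665) in GDel2. On 3073 to 4325 counts per library, counting error was at most 1.80%.

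Top1 (ENSMUSG00000070544; chr2:160645897-160722764) encodes topoisomerase I, which nicks DNA to relax the supercoils around a moving polymerase. It had 116 and 157 CPM in GDel1 and 128 and 136 CPM in GDel2, against 132, 127 and 131 CPM in WT. The GDel1 libraries held the lowest and the highest value, and WT and GDel2 lay between them. The log2 fold change was 0.07 ± 0.12 (adjusted p = 0.759) in GDel1 and 0.02 ± 0.12 (adjusted p = 0.921) in GDel2. Without the 2 libraries of highest mitochondrial share, which leaves 1 library in each deletion group, it passed in GDel1 (0.29, adjusted p = 0.00276). Top1 shares 549 annotated bases with the non-coding gene Gm52567.

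Top3b (ENSMUSG00000022779; chr16:16870722-16892986) encodes topoisomerase III beta, a type IA enzyme that acts on single strands of DNA and RNA and that lowers R-loops with Tdrd3. It had 71.6 and 76.6 CPM in GDel1 and 53.5 and 49.3 CPM in GDel2, against 77.5, 68.5 and 70.1 CPM in WT. In CPM both GDel2 libraries lay below all others, and GDel1 and WT overlapped. In TPM GDel1, at 23.75 and 23.29 TPM, also lay below every WT library (27.66 to 37.13 TPM), with GDel2 at 23.03 and 20.12 TPM. Top3b fell in GDel2 against WT (log2 fold change -0.49 ± 0.10, adjusted p = 0.00507) and against GDel1 (-0.53 ± 0.10, adjusted p = 0.00621), and it gave 0.04 ± 0.09 (adjusted p = 0.827) in GDel1 against WT. Both calls stayed with DESeq2 and without any single library. On log2(TPM + 1) by limma the GDel2 difference from WT had an adjusted p of 0.0548, and the difference from GDel1 was -0.12 (adjusted p = 0.664), which was -0.37 relative to the median of all genes. The median of 418 genes on chromosome 16 was -0.03 in GDel2 against WT, and of 28 genes within 1 Mb of Top3b 9 were lower and 1 was higher.

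The Top3b window (chr16:16870486-16870785, plus strand) is shown because the gene fell in GDel2 against both other groups. Capitals mark a CCAAT box 243 bases before the start and an ETS motif (CCGGAAG) that begins at base 26 after it.
Top3b promoter: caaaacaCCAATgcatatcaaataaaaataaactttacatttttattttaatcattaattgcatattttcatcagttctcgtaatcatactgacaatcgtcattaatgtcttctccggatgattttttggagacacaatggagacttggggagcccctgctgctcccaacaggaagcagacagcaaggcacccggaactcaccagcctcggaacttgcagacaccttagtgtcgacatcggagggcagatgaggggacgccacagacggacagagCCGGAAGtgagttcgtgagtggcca

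Tdrd3 (ENSMUSG00000022019; chr14:87416178-87545508) encodes a Tudor domain protein that reads methylated arginine on histones and brings TOP3B to chromatin. It had 18.9 and 20.3 CPM in GDel1 and 17.9 and 20.1 CPM in GDel2, against 18.5, 18.1 and 18.9 CPM in WT. The groups overlapped, with log2 fold changes of 0.09 ± 0.11 (adjusted p = 0.642) in GDel1 and 0.04 ± 0.11 (adjusted p = 0.803) in GDel2. The ratio of Top3b to Tdrd3 in CPM was 3.78 and 3.76 in GDel1 and 2.99 and 2.45 in GDel2, against 4.20, 3.79 and 3.71 in WT. Both GDel2 libraries lay below all others on this ratio, which was not tested. In TPM it was 11.9 and 6.95 in GDel1 and 7.65 and 4.67 in GDel2, against 9.06, 6.92 and 8.13 in WT, and the groups overlapped. The estimated length of Tdrd3 ranged from 2781 bases in GDel2 replicate 2 to 4488 bases in GDel1 replicate 1, and its TPM was 4.31 and 2.00 in those libraries, where its CPM was 20.1 and 18.9. The annotation places the pseudogene Gm33121 on 499 bases of it.

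Xrn2 (ENSMUSG00000027433; chr2:147012755-147078000) encodes the nuclear 5′ to 3′ exonuclease that degrades the RNA downstream of the cleavage site and helps to end transcription. It had 201 and 212 CPM in GDel1 and 138 and 146 CPM in GDel2, against 166, 172 and 168 CPM in WT. In CPM the 3 groups did not overlap: GDel1 was highest, GDel2 lowest and WT between them. In TPM they overlapped, at 30.55 and 36.21 TPM in GDel1 and 33.25 and 27.01 TPM in GDel2, against 35.84 to 40.57 TPM in WT. Xrn2 was lower in GDel2 than in GDel1 (log2 fold change -0.54 ± 0.09, adjusted p = 0.0025), a call kept with DESeq2 and without any single library. With limma on log2(TPM + 1) this difference was -0.15 (adjusted p = 0.595), or -0.39 relative to the median of all genes. Xrn2 fell in GDel2 against WT by a smaller amount (-0.25 ± 0.08, adjusted p = 0.0412), and this call was lost with DESeq2 (adjusted p = 0.0677) and without GDel2 replicate 1 (0.121), GDel2 replicate 2 (0.0840) or any of the WT replicates (0.110 to 0.147). GDel1 against WT gave 0.29 ± 0.08 (adjusted p = 0.0762). It was 0.33 without GDel1 replicate 1, in a fit that kept 1 GDel1 library.

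The Xrn2 window (chr2:147012749-147013048, plus strand) is shown beside that of Top3b, since both genes were lower in GDel2 than in GDel1. Nearly all of it lies inside the annotated span of Xrn2, so the start used is not the outermost one. Capitals mark the same ETS motif on the opposite strand (CTTCCGG), which begins at base 5 after the start.
Xrn2 promoter: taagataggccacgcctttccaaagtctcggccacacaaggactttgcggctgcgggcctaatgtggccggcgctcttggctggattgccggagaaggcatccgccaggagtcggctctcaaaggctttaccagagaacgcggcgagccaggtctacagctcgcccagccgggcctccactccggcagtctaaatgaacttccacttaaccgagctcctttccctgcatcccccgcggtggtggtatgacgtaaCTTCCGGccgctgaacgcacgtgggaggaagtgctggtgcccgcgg

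Over the 7 windows, the ETS motif CCGGAAG was found in 3 (Aqr, Top3b and Xrn2), against 8.86% of all 32851 windows, and the CCAAT box in 3 (Aqr, Rnaseh2a and Top3b), against 37.4%. The sequence TATAAA was found in 0 of 7 windows, against 13.6% of all windows. A G-quadruplex pattern of 4 runs of at least 3 G with loops of 1 to 7 bases, on either strand, was found in 0 of 7 windows, against 18.6% of all.

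**Figure D5:**
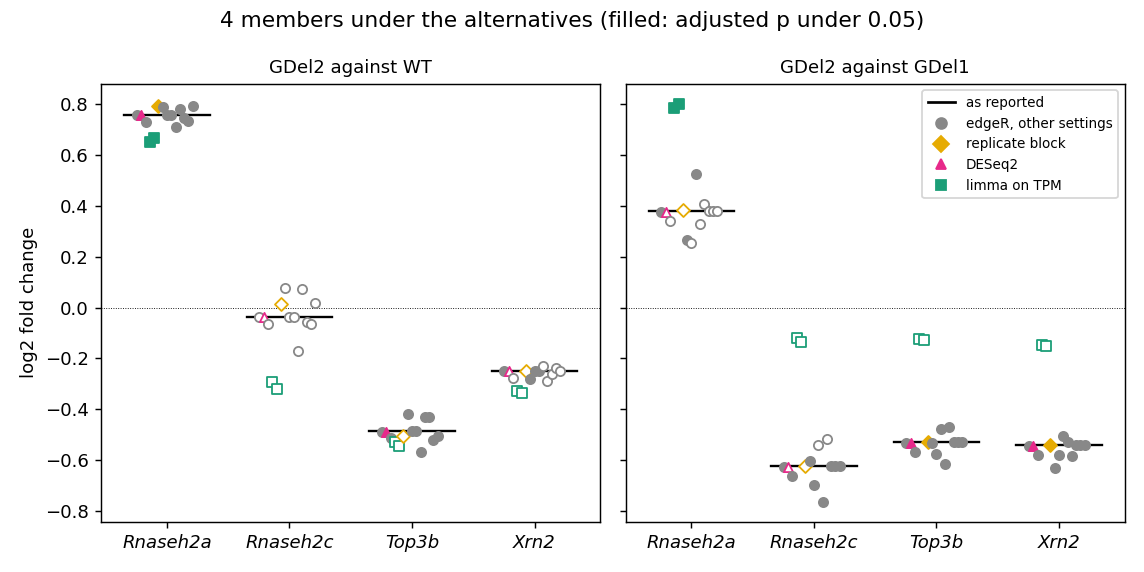
Log2 fold change of the 4 members called in GDel2 (against WT on the left, against GDel1 on the right) under each alternative setting (points), with a line at the value reported and filled points where the adjusted p is under 0.05. Rnaseh2a in GDel2 against WT stays between 0.65 and 0.79 and filled throughout, and Xrn2 in GDel2 against WT stays between -0.34 and -0.23 and is filled in 4 of 14 alternatives.

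Genes of the same pathways, listed by role, were read from the same fits. Of 71 such genes tested, 0 passed in GDel1 against WT by edgeR, against 0.376% of all genes. DESeq2 called 7 of 71 there, against 6.44% of all genes. On log2(TPM + 1) and log2(TPM + 0.1) limma called 14 each, against 21.1% and 22.9% of all genes. By edgeR 20 of 71 (28.2%) passed in GDel2 against WT, 16 higher and 4 lower, against 33.1% of all genes. In GDel2 against GDel1, 22 of 71 (31.0%) passed, 12 higher and 10 lower, against 27.7% of all genes. The 20 became 8 on either TPM scale, while the 5099 of all 15421 genes became 2604 and 2492. The 22 became 13 without WT replicate 1 and 14 without WT replicate 2, while the 4268 of all genes became 3428 and 3264. Fits without GDel1 or GDel2 replicates kept 1 library in that group, so their counts of these 71 genes are not given. Among 17 R-loop helicases, 3 rose and 4 fell in GDel2 against WT (7 of 17, or 41.2%, against 33.1% of all genes). The telomere helicase gene Rtel1 fell in GDel2 against WT (log2 fold change -0.37, adjusted p = 0.0106), and the DEAD-box gene Ddx47, on chromosome 6 with its median of 0.51, rose (0.64, adjusted p = 0.00323).

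Of 8 topoisomerases and partners other than members, 0 passed in GDel2 against WT by edgeR on all 7 libraries, against 33.1% of all genes. In GDel2 against GDel1, 2 of 8 passed (25%, against 27.7% of all genes). Top2a, which encodes the proliferation-linked topoisomerase II alpha, was lower (-0.38, adjusted p = 0.0253). Tdp1, which removes trapped topoisomerase I from DNA, was higher (0.36, adjusted p = 0.0259). Of 14 alternatives Top2a passed in 6 and Tdp1 in 5. Of 4 partners of Tdrd3 and Fmr1, 0 passed in any comparison by edgeR on all 7 libraries, while DESeq2 and limma on TPM each called 2 in GDel1 against WT. Of all genes, DESeq2 called 6.44% there and limma on the TPM scales 21.1% and 22.9%. Of these 4, Fxr1 had 367 and 346 CPM in GDel1 and 295 and 348 CPM in GDel2, against 263, 273 and 268 CPM in WT. Of 4 other genes of the intron-binding complex of Aqr, 2 rose in GDel2 against WT (50%, against 33.1% of all genes called in either direction). They were Isy1 (0.79, adjusted p = 2.77e-04) and Xab2 (0.72, adjusted p = 0.00117). Isy1 lies on chromosome 6 and Xab2 on chromosome 8, whose medians in GDel2 were 0.51 and 0.44.

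Of 11 genes of nuclear RNA termination and decay other than Xrn2, 4 rose and none fell in GDel2 against WT by edgeR (36.4%, against 33.1% of all genes). On either TPM scale 1 passed, where 2604 and 2492 of all 15421 genes were called. Cdkn2aip, whose product binds XRN2, rose (0.65, adjusted p = 0.00329), as did the related Cdkn2aipnl (0.85, adjusted p = 0.00696) and the exosome nuclease gene Dis3 (0.48, adjusted p = 0.0108). Cdkn2aip lies on chromosome 8 and Cdkn2aipnl on chromosome 11, whose medians in GDel2 against WT were 0.44 and 0.11. Xrn2 itself, as above, was lower in the same comparison. Of 12 genes of mRNA packaging and export, 2 rose in GDel2 against WT (16.7%, against 33.1% of all genes called in either direction). Thoc5, also on chromosome 11, had 45.0 and 44.1 CPM in GDel1 and 69.9 and 77.0 CPM in GDel2, against 36.4, 38.1 and 37.3 CPM in WT (log2 fold change 0.98, adjusted p = 1.02e-04). Thoc1 gave 0.33 (adjusted p = 0.0284), a call kept in 7 of 14 alternatives. Alyref, an export adaptor, was lower in GDel2 than in GDel1 (-0.64, adjusted p = 0.00334).

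Of 7 genes of ribonucleotide excision repair, the pathway that ribonuclease H2 opens, 2 rose in GDel2 against WT (28.6%). Of all genes, 33.1% passed there and 17.4% passed as higher. The 2 were Pcna, the sliding clamp (0.71, adjusted p = 0.00139), and Rfc1, of the clamp loader (0.44, adjusted p = 0.00683). Aicardi-Goutières syndrome is a disease caused in humans by loss of ribonuclease H2 among other genes. Of 5 genes tested of this syndrome and of nucleic acid sensing, 2 rose in GDel2 against WT (40%, against the same shares of all genes). These were the DNA sensor gene Cgas, at 2.09 and 1.61 CPM in GDel1 and 4.73 and 4.41 CPM in GDel2, against 1.62, 2.29 and 1.42 CPM in WT (1.36, adjusted p = 0.00361), and Tmem173, which encodes its adaptor STING, at 2.33 and 1.14 CPM in GDel1 and 5.05 and 4.26 CPM in GDel2, against 1.32, 0.928 and 1.52 CPM in WT (1.87, adjusted p = 0.00259). Both genes were at low levels, and both GDel2 libraries lay above all others for each. Of the 3 subunits of the single-strand binding protein RPA, 1 (33.3%) rose in GDel2 against WT, Rpa3 on chromosome 6 (0.53, adjusted p = 0.00623).

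For each member, the gene of most similar pattern over the 7 libraries was sought among genes of at least 10 CPM. Besides Aprt for Rnaseh2a, these were Naa30 for Rnaseh1, Gtf3c3 for Rnaseh2b, Rpl22 for Rnaseh2c, Utp15 for Aqr, Sypl for Top1, Gprc5b for Top3b, Wbp4 for Tdrd3 and Kif15 for Xrn2. The root mean square differences of log2 CPM ran from 0.0226 for Utp15 to 0.0791 for Rpl22. The members' own spread around their means by the same measure was 0.32 for Rnaseh2a, 0.28 for Rnaseh2c, 0.24 for Top3b and 0.21 for Xrn2, and 0.07 for Tdrd3 and 0.08 for Aqr. No member was the closest gene of another, but Rnaseh1 and Rnaseh2c, below 10 CPM, were not among the candidates.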

How the data were processed

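RNA-Seq gene tables of 7 libraries (GDel1, 2 libraries; GDel2, 2; WT, 3) were used, and the other 59 of 66 samples are not analysed here. Per the file headers, the authors deposited expected counts, TPM, FPKM, lengths and effective lengths for each gene. The deposited expected counts are estimates that are not scaled for depth. The deposited TPM values are scaled by the authors for effective length, with 1 common sum in every library, and the deposited FPKM values were not used. Per the submitters' processing notes, the tools of the series include STAR and RSEM and the build is mm10. The annotation release and the strand setting of the counting were not given in the sources used here. Symbols were found for 55141 of 55487 identifiers and RefSeq positions (GRCm38.p6) for 38555.

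Expected counts were rounded. Genes were kept by edgeR's filterByExpr at a minimum count of 10 and a total of at least 15. The 15421 genes kept held 99.9% of the counts. The edgeR 4.0.16 quasi-likelihood F test with TMM scaling (R 4.3.3) was fitted over all 7 libraries in 3 groups, and once more with GDel1 and GDel2 as 1 group. P-values were Benjamini-Hochberg adjusted across the 15421 genes, with 0.05 as the threshold, and are from edgeR unless another tool is named. CPM were computed on TMM library sizes. Alternatives were RLE size factors, DESeq2 1.42.0, no filter, limma 3.58.1 on log2(TPM + 1) and log2(TPM + 0.1), a replicate block, the loss of the 2 libraries with the highest mitochondrial share (GDel1 replicate 1 and GDel2 replicate 2), the loss of each library in turn and, for the deletion group, the mean of GDel1 and GDel2 from the fit in 3 groups. Tables and figures were made in Python 3.11.15 with pandas 2.3.3 and matplotlib 3.10.9. Fits that leave out a deletion library keep 1 in its group, which is then assumed to vary like the other groups. The fit was tested on simulated data. Counting intervals and errors cover counting only, at the 95% level for intervals.

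The 9 members, the pathway lists and the tests were chosen with earlier results of these data known. Named besides the members and Praf2 are, from each list, at most 3 genes of lowest adjusted p that passed in any comparison (where none passed, the gene of highest mean CPM), and for each member the gene of most similar pattern. A gene that this rule names is not reported here. Promoter sequences are those of the RefSeq table for GRCm38.p6 and covered 7 of the 9 members.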

Additional observations from a re-analysis of the deposited data

Results flagged for a closer look

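Rnaseh1 had 1 library apart among the 4 deletion libraries: GDel2 replicate 1 was at 6.23 CPM and the other three were at 7.44 to 7.66 CPM, a gap of 0.846 of the whole range. Each of the 9 members was examined in this way over these 4 libraries, and chance alone marks about 1 in 20 such groups. WT libraries for the same gene spanned 6.11 to 7.67 CPM.

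The effects of GDel2 and of GDel1, each against WT, differed for 4 of 9 members by the edgeR test of GDel2 against GDel1. In that test 27.7% of all genes passed, and the calls of Rnaseh2a and Rnaseh2c were lost with DESeq2. The difference of log2 fold changes was 0.38 for Rnaseh2a (0.76 in GDel2 and 0.38 in GDel1), -0.62 for Rnaseh2c (-0.04 in GDel2 and 0.59 in GDel1), -0.53 for Top3b (-0.49 in GDel2 and 0.04 in GDel1) and -0.54 for Xrn2 (-0.25 in GDel2 and 0.29 in GDel1). None of the GDel1 values passed against WT, and the value of Rnaseh2c in GDel2 against WT did not pass either and changed sign under 4 of its alternatives. The labels give both groups 1 genotype.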

How the results depend on the processing

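Of 513 recomputed log2 fold changes of the 9 members, 385 kept their direction and side of the threshold, 32 lost a call, 14 gained a call and 82 changed sign. Of the 82, 76 concerned values with no call in either fit and an unadjusted p of 0.05 or more. The other 6 were all in GDel1 against WT on the TPM scale: Rnaseh2a was -0.13, Rnaseh2c -0.17 and Xrn2 -0.18 on log2(TPM + 1), and -0.14, -0.18 and -0.19 on log2(TPM + 0.1). The medians of all genes moved to -0.30 and -0.44 there, so all 6 lay above the median, and the cause was not tested.

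The 0 members called in GDel1 against WT became 2 with no filter (Rnaseh2a and Rnaseh2c), 4 without the 2 libraries of highest mitochondrial share (also Top1 and Xrn2) and 0 to 3 without single libraries. The 3 members called in GDel2 against WT became 2 with DESeq2, 2 with no filter, 1 on either TPM scale and 2 without any of the WT replicates. The 4 called in GDel2 against GDel1 became 2 with DESeq2, 1 on either TPM scale, and 2 to 4 without single libraries. The 0 called in the deletion group became 1 (Rnaseh2a) with DESeq2 and 1 with the mean of GDel1 and GDel2. Here and below, fits without GDel1 or GDel2 replicates kept 1 library in that group, which limits their counts of calls.

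Over all genes, the 58 called in GDel1 became 993 with DESeq2, 2357 with no filter, 3250 and 3531 on the TPM scales, 4252 without the libraries of highest mitochondrial share, and 4 to 1968 without single libraries. The 5099 called in GDel2 against WT became 2604 and 2492 on the TPM scales and 2713 to 6531 without single libraries. The 4268 called in GDel2 against GDel1 became 2639 to 5586 without single libraries. The 0 called in the deletion group (2930 at an unadjusted p under 0.05) became 970 with DESeq2, 1 with no filter, 2 on log2(TPM + 1) and 3149 with the mean of GDel1 and GDel2.

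Replicate numbers are shared by the groups, but no label says that a number marks a batch. Deviations of same-numbered libraries correlated between -0.21 and 0.10. With 2 libraries in a deletion group their deviations mirror each other, so these values cannot decide whether the numbers pair the samples. With a replicate block, 0 members were called in GDel1, 1 in GDel2 against WT (Rnaseh2a) and 2 in GDel2 against GDel1 (Top3b and Xrn2), and over all genes 1, 2296 and 2235. Depth limits Rnaseh1 and Rnaseh2c most, at 79 to 146 and 73 to 178 counts per library.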
